A study of Mus musculus with 2 samples.

Results

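Zfp genes of the mouse are a numbered series of zinc finger proteins, and 108 of them could be followed on 2 Illumina bead arrays of SN4741 cells. Probes were taken from the authors' value table when their platform gene symbol was Zfp followed by digits only, leaving out Zfp36, a protein that promotes decay of mRNA. The rule found 164 probes of 141 genes, and 119 probes of 108 genes were detected, which here means that the overexpression array, the control array or both gave a detection p-value below 0.01. These 108 genes stood among 6702 named genes detected by the same criterion. The symbols fixed the members, and no difference between the arrays entered the rule, although Zfp770, Zfp821 and Zfp580 were singled out in it with their values known.

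SN4741 cells are mouse neuronal cells of dopaminergic origin, immortalized for culture, and were kept at 33 C in RF medium in both groups. One array measured cells after 12 h of Oxi-beta overexpression and the other measured control cells at 0 h. RNA of 3 samples was pooled for each, which leaves 1 array per group, no replicate check and no test, so precision is limited by this number. Duration and overexpression cannot be told apart, and the sources used here give neither the way Oxi-beta was introduced nor any empty construct in the controls. Of 13 markers of dopamine neurons, 4 were detected (Nr4a2, Foxa2, En1 and Gch1), and the defining genes Th, Slc6a3, Slc18a2 and Ddc had no named probe among the 11090 of the authors' value table, which covers part of the 24613 probes of each array. The 4 had summed signals of 1361 on the overexpression array and 1315 on the control array. Of 10 pan-neuronal markers 6 were detected, with summed signals of 5546 on the overexpression array and 6264 on the control array and log2 differences from -0.39 (Ncam1) to 0.57 (Nefm, detected with overexpression alone). The lower sum went with Stmn2, the brightest of them (3357 on the overexpression array and 4050 on the control array). The median log2 difference of the 6 was 0.14, with 4 positive and 2 negative. Among the positive ones, Nefm and Tubb3 were counted only through the overexpression array, where they read higher. Of those detected on both arrays, Syn1 (0.17) and Uchl1 (0.11) were positive, and Stmn2 (-0.19) and Ncam1 (-0.39) were negative. Of 7 astrocyte markers 3 were detected, with summed signals of 13259 and 13684 on the overexpression and control arrays, and Slc1a3, detected in control alone, had a fitted difference of -0.63. The median of the 3 was 0.0015, with 2 positive and 1 negative. Of 9 mesenchymal markers 6 were detected, with summed signals of 71885 and 80411 on the overexpression and control arrays. All 6 had negative log2 differences, with a median of -0.14. Of 18 interferon response genes 9 were detected, with summed signals of 7916 on the overexpression array and 4783 on the control array. Their median log2 difference was 1.19, and all 9 were positive, from 0.084 (Ifit2) to 2.31 (Irf9). That median is the fitted value of Irf7, which, like Ddx58, was counted only through the overexpression array. After background correction, Irf7 was at least 1.35-fold and Ddx58 at least 2.81-fold higher there. These marker shifts ran between the same 2 arrays as every difference below, and their part in the Zfp values was not tested.

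Most proteins with a Zfp name carry zinc fingers of the C2H2 type, short loops held by a zinc ion that bind DNA, and in some members RNA. Many also carry a KRAB box, which recruits the scaffold TRIM28 and through it the histone methyltransferase SETDB1 and heterochromatin proteins, and so silences the bound DNA. The name marks a protein fold and a naming series, not a pathway, and several members act on ribosomes, RNA or ubiquitin instead of on genes. Transcripts of such factors are often scarce. In bulk RNA, fewer cells with a transcript and less transcript per cell cannot be told apart.

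Signals of Zfp probes were low on both arrays. On the overexpression array the 108 genes had a lowest signal of 169, a median of 461 and a highest of 4375. On the control array the lowest was 161, the median 480.0 and the highest 4656. The 6594 other genes had medians of 1015 on the overexpression array and 1092 on the control array. Signals of different probes do not rank transcripts, but they set how far a reading stood above background, and the lowest signals called detected were 196 on the overexpression array and 201 on the control array. On the control array 43 Zfp genes (39.8%) read under 400, 35 read 400 to 1000 and 30 (27.8%) read over 1000, while 22.4% of the other genes read under 400 and 52.5% over 1000.

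Differences are given as log2 of overexpression minus control after background correction and quantile normalization, so that 0.58 is 1.5-fold. The overexpression array was slightly dimmer, and the median ratio of deposited signals, overexpression over control, was 0.947 over all 6702 genes and 0.938 over the Zfp genes. A deposited ratio a little under 1 therefore stands for a normalized difference of 0.

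The Zfp genes differed little between the arrays and in both directions. Their median log2 difference was -0.044, with 44 genes positive and 64 negative, and the other genes had a median of -0.0030, with 3211 positive and 3353 negative. The SD across the 108 genes was 0.208, which is a spread between genes and not an error of a group, and the SD across the other genes was 0.222. Zfp770 alone widened the Zfp value, since the SD without it was 0.183, and differences of the other genes reached 6.29. Over genes detected on both arrays the SD was 0.174 for Zfp genes and 0.162 for other genes. The interquartile range was 0.217 for all Zfp genes and 0.179 for all other genes. The quartiles of the Zfp genes lay at -0.14 and 0.077, and 83 of the 108 (76.9%) lay within 0.2 of 0, against 82.3% of the other genes.

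**Figure D1:**
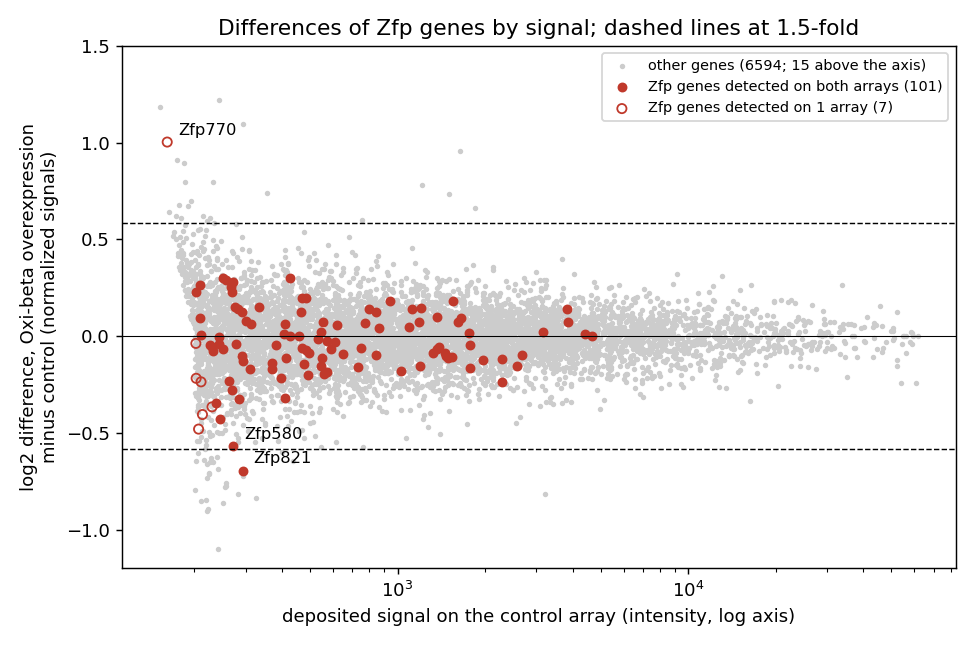
Each point is a gene, with its deposited signal on the control array along the x axis (intensity, log scale) and its normalized log2 difference, overexpression minus control, on the y axis. Zfp genes (108, red, open where detected on 1 array) narrow toward 0 as the signal rises, as the other 6594 genes (grey) do, and only Zfp770 and Zfp821 lie past the 1.5-fold lines.

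The spread of the Zfp genes depended on signal. For the 43 genes with a control signal under 400 the SD was 0.294, and 51.2% lay within 0.2 of 0. For the 35 genes from 400 to 1000 it was 0.135, with 91.4% within 0.2, and for the 30 genes over 1000 it was 0.113, with 96.7% within 0.2. In the same signal ranges the other genes had SDs of 0.383, 0.187 and 0.119, and 64.4%, 80.2% and 91.0% of them lay within 0.2 of 0. The Zfp medians were -0.048, -0.025 and -0.049 from the dim to the bright range, and those of the other genes were 0.0027, -0.0061 and -0.0036. No test was possible for these small shifts.

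At 1.5-fold, 1 Zfp gene (Zfp770) was higher on the overexpression array and 1 (Zfp821) was lower. Across all 6702 genes the share at least 1.5-fold higher was 0.582% and the share at least 1.5-fold lower was 0.433%, so that 1 gene of 108 (0.926%) each way is near the background and is no result about the series. At 2-fold, 1 Zfp gene was higher, again Zfp770, and 0 were lower, with background shares of 0.283% and 0.0149%. With genes seen on a single array set to their bound, 0 Zfp genes were 1.5-fold higher, against a background of 0.463%, and 1 was 1.5-fold lower, against 0.104%. At 2-fold 0 were higher, against 0.209%. Zfp821 stood just inside the 1.5-fold limit and Zfp580 just outside it.

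**Figure D2:**
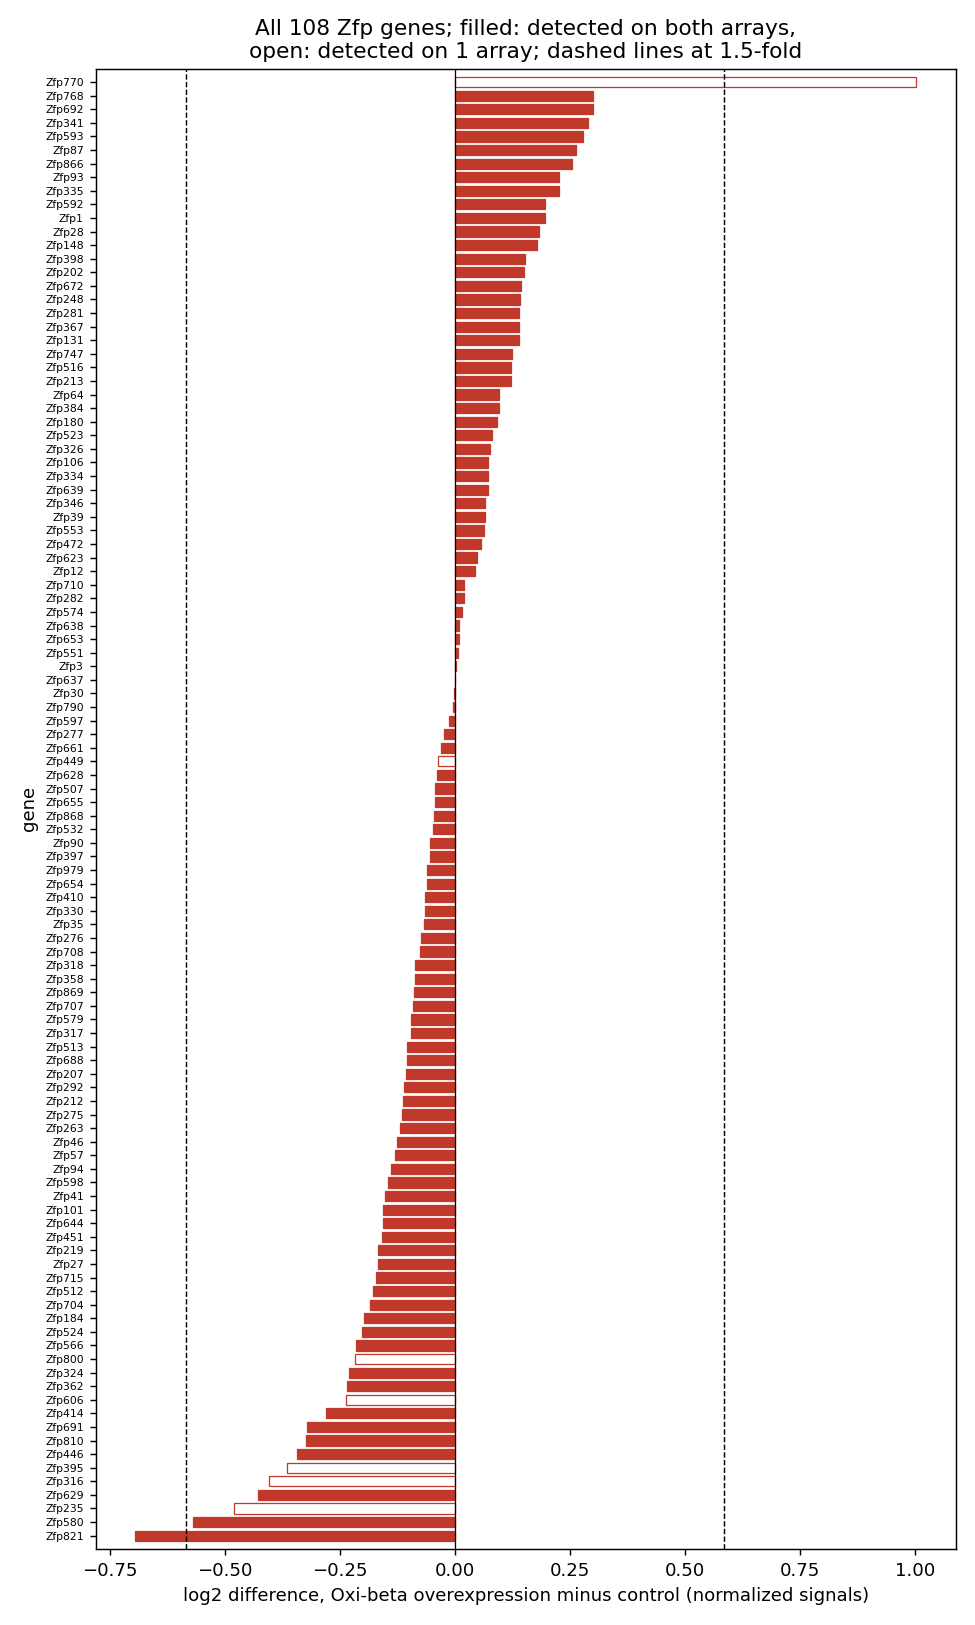
Bars give the normalized log2 difference, overexpression minus control, of each of the 108 Zfp genes, ordered from the highest at the top to the lowest at the bottom, with open bars for genes detected on 1 array. Between Zfp770 at 1.003 and Zfp821 at -0.69 the bars change gradually, and all the others stay inside the dashed 1.5-fold lines.

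Zfp770 had the highest value. Its single named probe read 230.3 on the overexpression array (detection p-value 0.0049) and 161 on the control array (detection p-value 0.0268). The transcript was thus not well above background in control cells, and the fold is a bound. After background correction its level with overexpression was at least 1.33-fold higher, where the bright value is set against the lowest normalized value of probes detected on the control array. That bound depends on the correction, since uncorrected signals set against the lowest detected signal gave a smaller log2 difference of 0.25, or 1.19-fold. The fitted log2 difference was 1.003 and the ratio of deposited signals was 1.43. A gene missing on the control array was counted only through the overexpression array, so it had to differ. Among 103 other genes of like control signal (the dimmer at least 0.8 of the brighter) that were also detected on the overexpression array only, 10 had a difference at least as large.

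Zfp821 had the lowest value. The probe that stood for it read 210 on the overexpression array and 294 on the control array, with detection p-values of 0.0073 and 0.0024. The log2 difference was -0.69, or 1.62-fold lower, at a deposited ratio of 0.714. A second probe of Zfp821 read 157 on the overexpression array and 159 on the control array, was detected on neither, and had a difference of 0.0043. The value of Zfp821 therefore rests on 1 probe, and the undetected one carries no reading of change. Among 865 other genes of like control signal, 8 were at least as low. These include genes detected in control alone, which were counted only through the array where they were high. Among the 855 detected on both arrays, as Zfp821 was, 2 were at least as low. A dim gene that fell far would no longer be detected with overexpression, so this requirement itself lowers the count. Neither count tells how rare such a value is.

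Zfp580 came next. Its single named probe read 206 on the overexpression array and 273 on the control array, a deposited ratio of 0.757 and a log2 difference of -0.57, or 1.48-fold lower. Of 916 other genes of like control signal, 21 were at least as low. Of the 875 among them detected on both arrays, as Zfp580 was, 3 were at least as low. Both counts have the limits given for Zfp821. With overexpression, both Zfp821 and Zfp580 read just above 196, the lowest signal called detected.

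The promoters of these 3 genes are shown because they hold the readings at both ends of the series and because genes of the interferon response were higher on the same array. Each window runs from 250 bases before to 50 bases after the transcription start in RefSeq (GRCm38.p6), 5′ to 3′ on the strand of the gene, and capitals mark GGGCGG on either strand, the core of the GC box bound by the SP1 family.
Zfp770, chr2:114201383-114201682, minus strand: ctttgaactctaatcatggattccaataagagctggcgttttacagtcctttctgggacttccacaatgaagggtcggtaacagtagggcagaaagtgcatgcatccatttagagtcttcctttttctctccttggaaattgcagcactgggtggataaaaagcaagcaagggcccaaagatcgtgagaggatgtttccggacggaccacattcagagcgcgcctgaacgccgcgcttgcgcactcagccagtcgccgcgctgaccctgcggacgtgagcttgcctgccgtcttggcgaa
Zfp821, chr8:109705258-109705557, plus strand: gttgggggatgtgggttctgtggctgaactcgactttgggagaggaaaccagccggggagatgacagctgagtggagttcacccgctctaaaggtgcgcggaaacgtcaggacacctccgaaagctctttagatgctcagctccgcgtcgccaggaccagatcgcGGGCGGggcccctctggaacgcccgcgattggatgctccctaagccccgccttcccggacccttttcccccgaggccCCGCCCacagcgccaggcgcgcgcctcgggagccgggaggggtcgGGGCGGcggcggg
Zfp580, chr7:5051282-5051581, plus strand: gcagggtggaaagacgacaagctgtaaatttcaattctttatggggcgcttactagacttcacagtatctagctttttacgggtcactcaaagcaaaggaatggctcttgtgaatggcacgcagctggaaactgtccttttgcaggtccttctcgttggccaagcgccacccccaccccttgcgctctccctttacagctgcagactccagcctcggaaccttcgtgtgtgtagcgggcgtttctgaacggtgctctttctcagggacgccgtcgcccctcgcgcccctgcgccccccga
The Zfp821 window, the first of 3 for that gene, held 3 matches to GGGCGG, and the windows of Zfp770 and Zfp580 held 0. Their G and C content was 53% for Zfp770, 68% for Zfp821 and 56.3% for Zfp580.

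A motif of the interferon-stimulated response element, GAAA followed after any 2 bases by GAAA on either strand, was in none of these 3 windows. Promoter windows were given for 87 of the 108 Zfp genes, and 2 of the 87 (2.30%) held the motif. The share was 3.99% of all 27025 genes with a window and 3.34% of 5447 other named detected genes. The 2 genes were Zfp213 and Zfp334, whose motifs are shown in capitals because they are the only matches. The strand given is that of the bases printed, which is the strand of the gene for Zfp213 and the opposite strand for Zfp334.
Zfp213, chr17:23564386-23564415, minus strand: gtgcgacccaGAAAGCGAAAatgagacttc
Zfp334, chr2:165388255-165388284, plus strand: agagccccacGAAACGGAAAcgcatccata
The Zfp213 probe read 854 on the overexpression array and 847 on the control array, a log2 difference of 0.12. The Zfp334 probe read 1165 on the overexpression array and 1184 on the control array, a log2 difference of 0.071. GGGCGG was in the windows of 57.5% of the 87 Zfp genes, 38.2% of all genes with a window and 72.3% of other named detected genes. A match is a description of letters in a window.

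Among Zfp genes detected on both arrays, the highest difference was that of Zfp768, with signals of 278 on the overexpression array and 251 on the control array and a log2 difference of 0.30. Zfp692 read 478 on the overexpression array and 427 on the control array, also a difference of 0.30, and was the brightest of the 8 highest. Zfp341, whose human counterpart activates transcription of STAT3, read 284 on the overexpression array and 258 on the control array, a difference of 0.29. The others of the 8 highest were Zfp593 (0.28), Zfp87 (0.26), Zfp866 (0.25), Zfp93 (0.23) and Zfp335 (0.23). Apart from Zfp692, these 8 read under 300 on both arrays.

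At the lower end, Zfp629 read 199.6 on the overexpression array and 245 on the control array, a log2 difference of -0.43, which was -0.26 with the authors' deposited values and with uncorrected signals. Zfp446 read 199.9 and 237 on the overexpression and control arrays (-0.34), and Zfp810 read 238 and 286 (-0.32). Zfp691 read 330 on the overexpression array and 410.0 on the control array (-0.32), and Zfp414 read 230.2 and 270 (-0.28). Zfp362 was the exception in brightness, at 1826 on the overexpression array and 2281 on the control array, with a difference of -0.24 and a deposited ratio of 0.801. No other Zfp gene with a control signal over 1000 was lower by as much, and all 30 such genes stayed within 0.25 of 0.

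**Figure D3:**
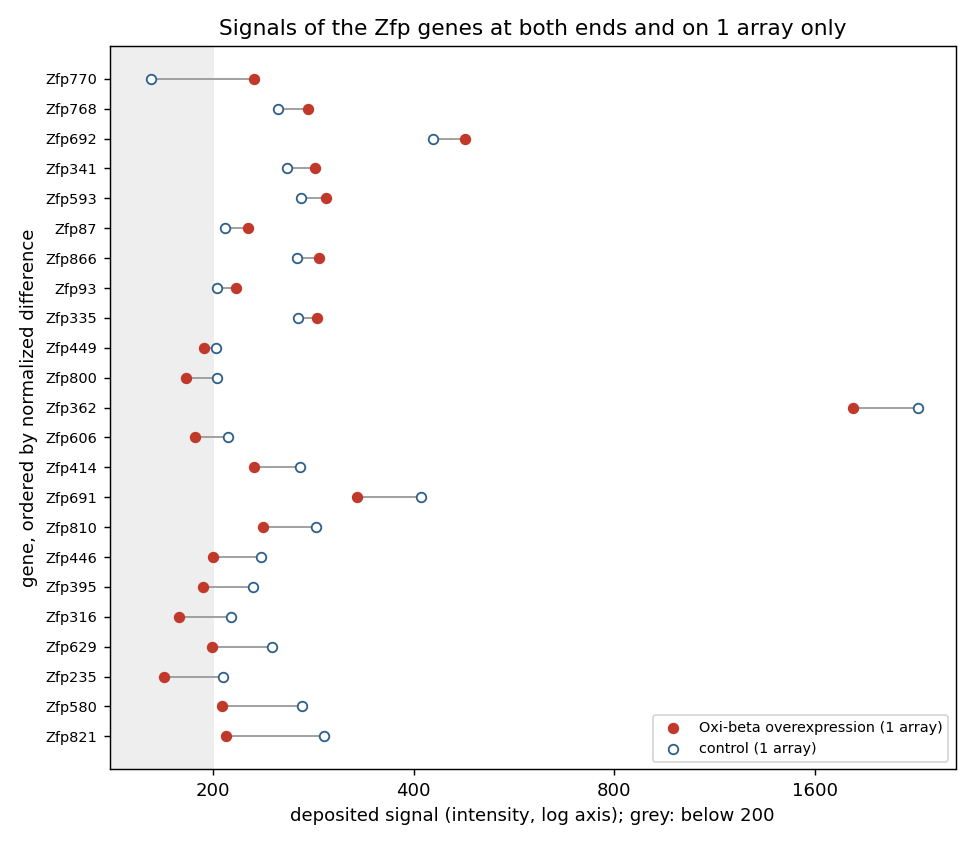
Deposited signals (intensity, log axis) are shown for the Zfp genes at the upper and lower ends (8 each) among those detected on both arrays, and for the 7 detected on 1 array only, with overexpression filled and control open. Most pairs lie under 400, close to the grey zone below 200, and Zfp362 is the only one above 1000.

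Detection on a single array was mostly on the control side. Of the 108 genes, 101 were detected on both arrays, 1 (Zfp770) with overexpression alone and 6 (5.56%) in control alone. The shares over all 6702 genes were 1.6% for overexpression alone and 1.87% for control alone. More Zfp genes were dim, with 39.8% under 400 on the control array against 22.4% of the other genes. Shares among genes of like signal were not computed, so the higher share is no result about the series. The 6 were Zfp449, Zfp800, Zfp606, Zfp395, Zfp316 and Zfp235, which read 169 to 194 on the overexpression array and 202 to 230.1 on the control array. They all straddled the detection limit by small amounts, and after background correction their bounds ran from at least 1.01-fold to at least 1.26-fold lower. With uncorrected signals set against the lowest detected signal, Zfp395, at the upper end, had a smaller log2 difference of -0.21 and Zfp316 had -0.10. Fitted differences ran from -0.038 for Zfp449 to -0.48 for Zfp235. Zfp449 and Zfp800 (lowest detection p-value 0.0097) were just inside the limit of 0.01, and Zfp62 and Zfp365 (0.0122) were just outside it.

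The 8 brightest Zfp probes on the control array all stayed within 0.2 of 0. Zfp637 read 4375 on the overexpression array and 4656 on the control array, a log2 difference of -0.0010. Zfp638, a nuclear protein that binds RNA and in human cells silences unintegrated retroviral DNA, read 4241 on the overexpression array and 4432 on the control array (0.0096). Zfp639 read 3841 and 3856 on the overexpression and control arrays (0.071), and Zfp131, a zinc finger protein with a BTB domain, read 4031 and 3841 (0.14). Zfp282, known in the human as HUB1, read 3013 on the overexpression array and 3168 on the control array (0.020). Zfp579 was at -0.096, Zfp644 at -0.16 and Zfp263 at -0.12.

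Roles away from the promoter were described by a list of 8 genes of RNA and translation, of which 6 were detected. Their median log2 difference was 0.069, beside -0.0036 over all 6702 genes. Of the 6, 5 were positive and 1 negative, where 48.7% of the other genes were positive. None reached 1.5-fold, which 0.582% of all genes did upward and 0.433% downward, so this is near the background and no result about the list. Zfp598, a ubiquitin ligase that marks collided ribosomes, read 419 on the overexpression array and 476 on the control array (-0.15). Zfp593, whose yeast counterpart accompanies the large ribosomal subunit out of the nucleus, read 296 on the overexpression array and 271 on the control array (0.28). Zfp106, an RNA-binding protein needed by motor neurons of the mouse, read 1597 and 1613 on the overexpression and control arrays (0.071). Zfp326, a subunit of the complex that couples RNA polymerase II elongation to splicing, was at 0.075, and Zfp346, which binds double-stranded RNA, was at 0.066.

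Of 7 genes of ubiquitin, SUMO and cell division, 2 were detected and both were slightly lower. Zfp207, which binds microtubules and supports spindle assembly, read 1359 on the overexpression array and 1536 on the control array (-0.11). Zfp451, a SUMO ligase, read 624 on the overexpression array and 731 on the control array (-0.16). Neither reached 1.5-fold.

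Of 20 genes of transcription and development, 10 were detected, with a median of 0.0049, 5 positive, 5 negative and 0 at 1.5-fold. With 0.582% of all genes 1.5-fold higher and 0.433% lower, that count of 0 is near the background. The sign of the median depended on the processing, at 0.096 for genes detected on both arrays, -0.099 for those with a mean signal of at least 400 and -0.012 with the authors' deposited values. Zfp148, which binds GC-rich promoters, read 1666 on the overexpression array and 1557 on the control array (0.18), and Zfp281, related to it, read 1142 and 1121 (0.14). Zfp219 read 1504 on the overexpression array and 1770 on the control array (-0.17). Zfp335, part of a complex of histone H3 lysine 4 methylation, read 287 and 269 on the overexpression and control arrays (0.23). Zfp516, which promotes brown fat genes, was at 0.12, and Zfp384, a regulator of matrix genes in bone, at 0.096. Zfp292 was at -0.11, Zfp318, which shapes the IgD transcript of B cells, at -0.086, and Zfp395 had a bound of at least 1.26-fold lower after background correction.

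Of 8 genes of chromatin complexes, 4 were detected, with a median of -0.10. Zfp644, which brings the histone methyltransferases G9a and GLP to chromatin, read 2189 on the overexpression array and 2567 on the control array (-0.16). Zfp512 read 857 on the overexpression array and 1025 on the control array (-0.18). Zfp592 and Zfp532, partners of ZMYND8 in human cells, differed in sign at 0.20 and -0.048, and Zfp687, the remaining member of that complex, had a named probe that was not detected. Of 7 genes that silence repeats or imprinted loci, 2 were detected. Zfp57, which keeps DNA methylation at imprinted loci, read 267 on the overexpression array and 295 on the control array (-0.13), and Zfp708 read 218 and 231 (-0.077). The retroviral silencer Zfp809 had a named probe that was not detected.

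The corepressors that KRAB zinc finger proteins recruit were read on the same arrays. Of a list of 28 corepressor genes, 18 were detected, with a median log2 difference of 0.035, 11 positive, 7 negative and 0 at 1.5-fold in either direction. With 0.582% of all genes 1.5-fold higher and 0.433% lower, a count of 0 among 18 is near the background and is no result about the corepressors. Trim28, the scaffold bound by the KRAB box, read 9813 on the overexpression array and 10570 on the control array (-0.029). Setdb1, which methylates histone H3 at lysine 9, read 633 and 666 on the overexpression and control arrays (0.020). The highest were Mta3 (0.18), Ehmt1 (0.17) and Rbbp7 (0.14), and the lowest were Hdac2 (-0.22), Mta1 (-0.16) and Atf7ip (-0.14). Hdac2, a histone deacetylase of the NuRD complex, read 4888 on the overexpression array and 5999 on the control array. Zfp410, which in mouse and human cells activates the NuRD remodeller gene Chd4, read 536 on the overexpression array and 591 on the control array (-0.065). Chd4 itself read 3432 and 3384 on the overexpression and control arrays (0.11).

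**Figure D4:**
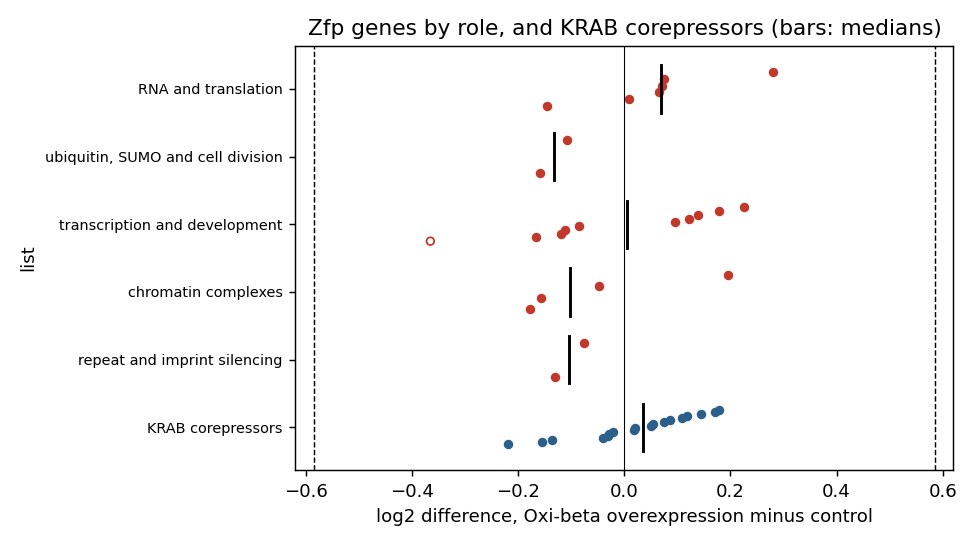
Points are genes, placed by normalized log2 difference, overexpression minus control, for 5 role lists of Zfp genes (red, open where detected on 1 array) and for the KRAB corepressors (blue), with a black bar at each median. All points lie inside the dashed 1.5-fold lines, and the medians run from -0.13 to 0.069.

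Several Zfp genes had more than 1 detected probe, which shows how far readings of the same transcript can differ. For 10 genes the differences of their probes could be compared, and the root mean square of the SD between probes of a gene was 0.124, a spread of probes within a gene that says nothing of the spread of samples. Over 7 Zfp genes with probes detected on both arrays it was 0.0861, and over 992 other genes it was 0.149. Zfp212 differed most, with its probe of higher signal at -0.11 (488 on the overexpression array and 550.0 on the control array) and a dim one at -0.45 (178 and 217). Zfp346 had 0.066 and 0.29 from its probes, and Zfp708 had -0.077 and -0.28. In these 3 genes the dimmer probe gave the larger difference. Each of these dimmer probes was detected on 1 array only, control for Zfp212 and Zfp708 and overexpression for Zfp346. They were counted only through the array where they read higher, so they had to differ in that direction. Zfp292 had the closest pair, at -0.11 and -0.14.

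Zinc finger genes of the mouse often sit side by side in clusters. In the order of protein-coding genes of RefSeq (GRCm38.p6), 10 pairs of the 108 genes were direct neighbours. Of these, 6 pairs had differences of the same sign and 4 of opposite sign. Among the 108 genes 44 were positive and 64 negative, and no share for other pairs was computed. The 6 of 10 is thus no result about neighbours. Zfp692 (0.30) and Zfp672 (0.14) on chromosome 11 were both positive, as were Zfp768 (0.30) and Zfp747 (0.12) on chromosome 7. Zfp324 (-0.23) and Zfp446 (-0.34) on chromosome 7 were both negative. Zfp12 (0.043) and Zfp316 (-0.41) on chromosome 5 had opposite signs, and so had Zfp551 (0.0064) and Zfp606 (-0.24) on chromosome 7. Chromosome 7 held 27 of the 108 genes, 10 positive and 17 negative, with a median of -0.043. Probes of related zinc finger genes may share sequence, and cross-hybridization was not tested.

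The remaining 33 genes of the rule had no probe detected at 0.01. Their 34 probes read 130 to 193 on the overexpression array and 130 to 191 on the control array, with log2 differences from -0.46 to 0.83 and a median of 0.088. These signals lie below the lowest detected signal of either array and carry no reading of change. The value at 0.83 belonged to Zfp13, which read 172 on the overexpression array and 130 on the control array and was named after its value was seen.

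The values of the 3 genes singled out moved with the background correction. For Zfp770 the log2 difference was 0.54 with the authors' deposited values and 0.25 with uncorrected signals raised to the lowest detected signal. For Zfp821 both gave -0.44, and for Zfp580 both gave -0.35. No Zfp gene reached 1.5-fold in either direction under those 2 settings. Of all 6702 genes, 22 were higher and 2 lower by 1.5-fold with the authors' values, and 18 and 1 with the floored signals. The count of 0 is thus near the background and no result about the Zfp genes.

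**Figure D5:**
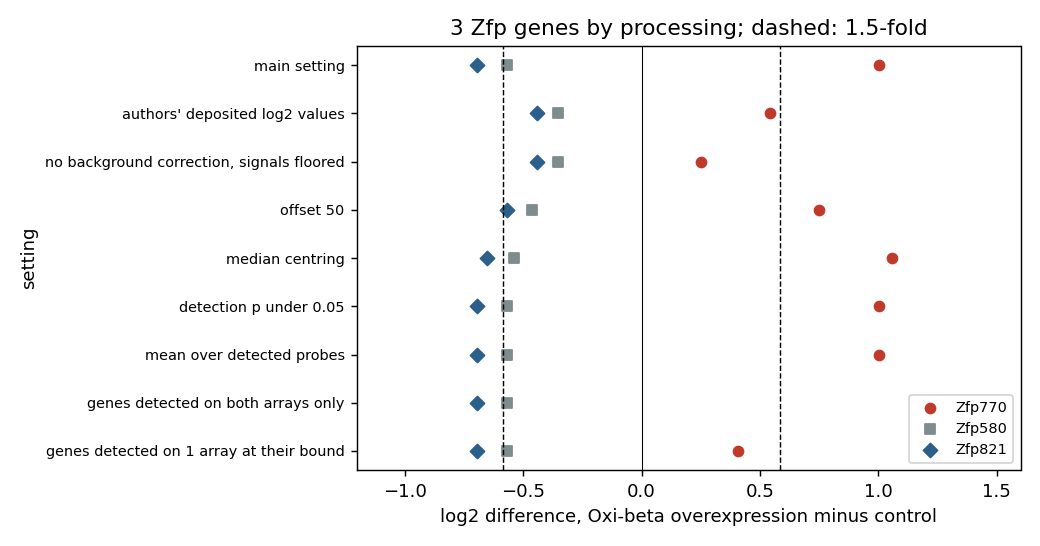
The normalized log2 difference, overexpression minus control, of Zfp770 (circles), Zfp580 (squares) and Zfp821 (diamonds) is shown on the x axis under each processing setting (rows). Signs stay the same in every row shown, and without background correction all 3 lie inside the dashed 1.5-fold lines.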

How the data were processed

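RNA of SN4741 cells was hybridised to 1 array for Oxi-beta overexpression (12 h) and 1 for control (0 h), each a pool of 3 samples. Per the file headers, the authors gave a signal intensity and a detection p-value for each of 24613 probes before normalization. Their deposited value table has log2 signals of 11090 probes, and both of its columns hold an identical distribution. The submitters' processing notes name BeadStudio, with no version. The overexpression column is headed as test and was matched as the only group besides control. Its log2 signals correlated with the overexpression values of the value table at r = 0.99998 across probes, and the control signals did so at 0.99613.

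Signals were background-corrected with limma 3.58.1 in R 4.3.3 (nec, using the detection p-values, with an offset of 16), then quantile-normalized and log2-transformed. For each gene the brightest named probe by mean signal was used, and detection required a p-value under 0.01. A fold of a gene detected on 1 array is a bound. The correction was tested on simulated data with 200 changed probes, all detected in control with signals over 400. It was thus not tested for changes in the dimmer range of Zfp770, Zfp821 and Zfp580. All 141 Entrez identifiers were found in RefSeq (GRCm38.p6). The members and lists were chosen with earlier results of these data known. Named genes were Zfp770, Zfp821 and Zfp580, the 8 highest and 8 lowest differences, the 8 brightest, those detected on 1 array, role list members, the 3 with the most discordant probes, genes at the thresholds, and the 3 highest and 3 lowest corepressors. Other examples (neighbour pairs, motif matches, Trim28, Setdb1, Zfp410 and Chd4) were chosen by role or position. The planned description of protein features was not made, since protein sequences were not used here.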

Additional observations from a re-analysis of the deposited data

How the results depend on the processing

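No paired analysis was possible because each group had 1 array. A value was taken as moved when it changed by more than 0.149, the disagreement between probes of other genes, divided by the square root of the number of genes, and a count or an SD when it changed by more than 1.5 times. The SD of the Zfp differences was 0.127 with uncorrected, floored signals and 0.120 with a mean signal of at least 400. The median was -0.030, -0.018 and -0.028 with floored signals, median centring and a mean signal of at least 400. Median centring moved the median of all genes to 0.019. Zfp genes at least 1.5-fold higher numbered 0 with the authors' values, floored signals, detection on both arrays, bounds, or a mean signal of at least 400, and 3 at a detection p-value under 0.05. Those at least 1.5-fold lower numbered 0 with the authors' values, floored signals, an offset of 50 and a mean signal of at least 400. Of all 6702 genes, 39 were higher and 29 lower by 1.5-fold, against 22 and 2 with the authors' values, 18 and 1 floored, 28 and 13 with an offset of 50, 78 and 69 at 0.05, 16 and 6 on both arrays, 31 and 7 with bounds, and 12 and 1 with a mean signal of at least 400. Zfp770 was 0.54 with the authors' values, 0.25 with floored signals, 0.75 with an offset of 50 and 0.41 at its bound. Zfp821 was -0.44 and Zfp580 was -0.35 with the authors' values and with floored signals. Zfp770, Zfp821 and Zfp580 had mean signals under 400 and so no value under that limit, which also leaves fewer genes. The cause of the other changes was not tested. The corepressor median kept its value within that margin under all alternatives. The median of the transcription and development list was 0.096 over genes detected on both arrays and -0.099 with a mean signal of at least 400, and turned negative with the authors' values (-0.012), floored signals (-0.012) and an offset of 50 (-0.0044). Zfp629 was -0.26 with the authors' values and with floored signals. Among genes detected in control alone, floored signals gave -0.21 for Zfp395, -0.10 for Zfp316, -0.057 for Zfp235, -0.085 for Zfp606 and -0.031 for Zfp800. Zfp212 was -0.28 as the mean of its detected probes.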
